A study of Mus musculus with 6 samples.

Results

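Of 10 genes that are used to recognise lipid-associated macrophages, 9 were read by the arrays of hepatic tissue from mice without arylsulfatase B (ARSB), among 19938 genes that had a probe set with a single symbol. The 10 genes were fixed by name: Trem2, Tyrobp, Cd9, Spp1, Itgax, Lpl, Fabp5, Lgals3, Lgals1 and Clec7a. For each, the probe set with the highest mean over the 6 arrays was taken. Spp1, which encodes the secreted glycoprotein osteopontin, had no probe set with its symbol in the annotation used here and was not analysed. The symbol Fabp5 stood on 2 probe sets, and each of the other measured genes had 1.

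The arrays hold liver RNA of 3 ARSB-null mice, homozygous for the null allele, and 3 control mice, all untreated 12-week-old males on C57BL/6J. The mice are numbered 4, 5 and 6 in both groups, with 1 array each. The ARSB-null mice came from a homozygous colony that was bred from heterozygous animals, and the controls are not described as littermates, so genotype and colony cannot be told apart. The authors deposited log2 signals that had been normalized by quantiles and summarized to 1 value per probe set. There are no detection calls. The levels of different probe sets are not compared here, apart from their position against the median of all probe sets.

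Arsb itself was lower in the ARSB-null livers on both of its probe sets, with log2 signals of 7.46 to 7.64 against 10.21 to 10.23 in the controls on the brighter one (adjusted p = 0.000639 from limma). The array medians lay between 6.50 and 6.60. Both arrays numbered 4 stood apart: the standard deviation of their departures from their group means, over all probe sets, was 0.228 for the ARSB-null and 0.277 for the control array, and 0.182 to 0.204 for the other 4. All 8 hepatocyte markers were measured, and none was past an unadjusted p of 0.05 between the groups. Cyp2e1, a cytochrome P450 of hepatocytes, averaged 13.48 (log2) in ARSB-null and 13.32 in control liver, and Tat, which breaks down tyrosine, 13.58 in ARSB-null and 13.75 in control liver.

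Lipid-associated macrophages are tissue macrophages that gather around dying, lipid-filled cells, in obese adipose tissue, atherosclerotic plaque and steatotic liver, and they resemble the disease-associated microglia of the brain. Their programme depends on TREM2, a surface receptor that binds lipids and lipoproteins and signals through the adaptor TYROBP (DAP12) and the kinase SYK. The genes of the programme serve uptake, lysosomal breakdown and storage of lipid, adhesion, and the secretion of matrix proteins and lectins. Most of them are also expressed by other cells, so in whole liver a change in the number of such cells and a change in their RNA content cannot be told apart.

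In ARSB-null liver, 5 of the 9 measured genes had higher signals at an unadjusted p under 0.05: Lgals3, Trem2, Cd9, Clec7a and Itgax, by 1.31-fold to 1.59-fold. The other 4, Lpl, Tyrobp, Fabp5 and Lgals1, did not reach that level in either direction. No member was past the adjusted threshold of 0.05 over all 35556 probe sets, which 7 probe sets were, or 0.0197%; the smallest adjusted p among the members was 0.378, that of Lgals3. Over all genes with 1 symbol, 2.0% were higher and 3.80% were lower at an unadjusted p under 0.05. In 4 of the 9 members all ARSB-null livers were above all controls, which held for 4.73% of all genes, and in none did all ARSB-null livers lie below, which held for 8.32% of all genes. These shares over all genes also stand beside the counts of each list given below. The median log2 difference, ARSB-null minus control, was 0.39 over the 9 members and -0.02 over all genes. For a single gene, an exact two-sided permutation test over 3 mice against 3 cannot give a p under 0.1.

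**Figure D1:**
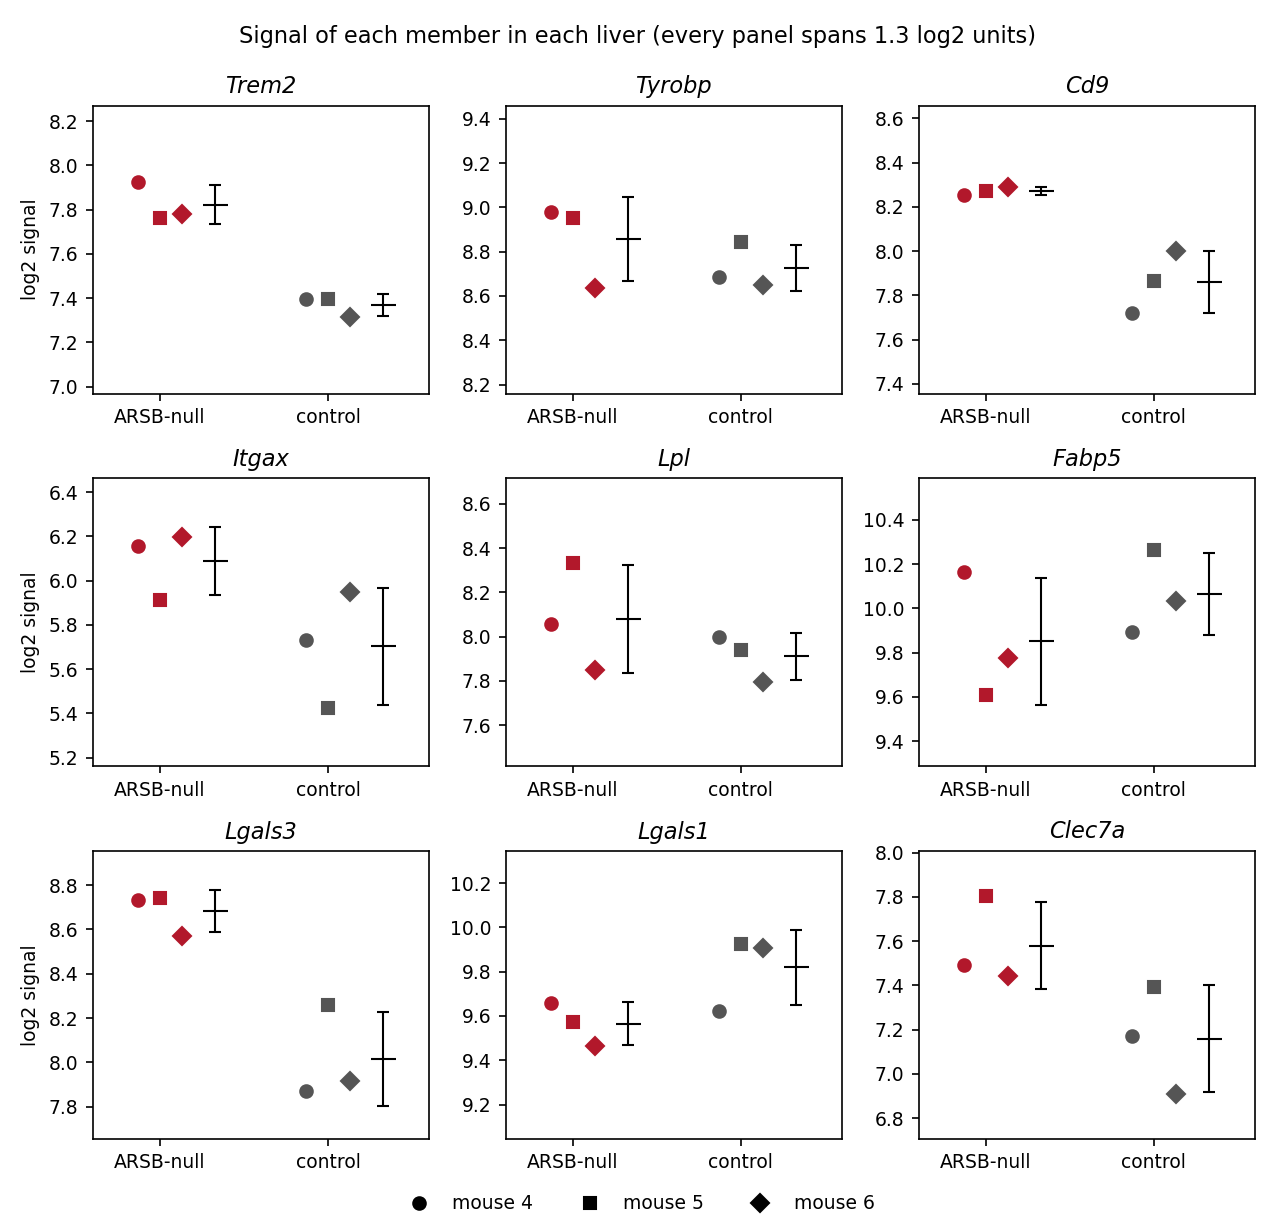
Log2 signal (vertical axis, 1.3 units in every panel) of the 9 measured genes in each ARSB-null (red, left) and control (grey, right) liver; symbols give the mouse number and the bar beside each group its mean ± SD (n = 3). For Trem2, Cd9, Lgals3 and Clec7a all ARSB-null livers lie above all controls, and for the other 5 genes the groups overlap.

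Trem2 encodes the receptor at the head of the programme. The ARSB-null livers numbered 4, 5 and 6 had log2 signals of 7.92, 7.76 and 7.78, against 7.40, 7.39 and 7.31 in the control livers. The groups did not overlap, and the gap between them exceeded the range within either. The means were 7.82 ± 0.09 in ARSB-null and 7.37 ± 0.05 in control tissue (SD, n = 3 each), a 1.37-fold difference with a 95% interval of 1.17 to 1.61. The unadjusted p was 0.00239 and the adjusted p 0.419 from limma, and Trem2 ranked 132 by p among the 19938 genes.

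Tyrobp encodes the transmembrane adaptor that carries the signal of TREM2 and of several other myeloid and NK cell receptors. On the log2 scale it read 8.98, 8.95 and 8.64 in ARSB-null liver and 8.69, 8.84 and 8.65 in control liver. The ARSB-null liver numbered 6 lay below all 3 controls and the other 2 lay above them. The log2 difference was 0.13, with a 95% interval of -0.18 to 0.44 (adjusted p = 0.985 from limma). It depended on single livers: it was 0.07 without the ARSB-null liver numbered 4, 0.08 without that numbered 5 and 0.24 without that numbered 6.

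Of 16 genes that act downstream of TREM2 or release it from the cell surface, all measured, none was past the adjusted threshold, and 2 were higher and none lower at an unadjusted p under 0.05. These were Blnk, a scaffold of SYK signalling (log2 difference 0.34, adjusted p = 0.745 from limma), and Syk (0.24, adjusted p = 0.831), both with all ARSB-null livers above all controls. Vav3 differed by 0.19 (adjusted p = 0.884), and Adam17, one of the proteases that shed TREM2, by -0.21 (adjusted p = 0.905). The median over the 16 genes was 0.02. Of 10 related immunoglobulin-like receptors of the TREM and CD300 group, with Pigr, 2 were higher and 2 lower at an unadjusted p under 0.05. Cd300a, an inhibitory receptor for lipids of dying cells, had a log2 difference of 0.42 and Cd300lf one of 0.32, against -0.56 for Cd300ld and -0.35 for Trem3; the adjusted p of these was 0.621 to 0.825 from limma.

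Clec7a encodes dectin-1, the C-type lectin that binds β-glucans and signals through SYK. It read 7.49, 7.80 and 7.44 on the log2 scale in ARSB-null liver, against 7.17, 7.39 and 6.91 in control liver. The liver numbered 5 was the highest of both groups, and the lowest ARSB-null liver (7.44) lay just above the highest control (7.39). The log2 difference was 0.42 with a standard error of 0.16, a 1.34-fold difference (95% interval 1.03 to 1.75, unadjusted p = 0.0358, adjusted p = 0.80 from limma). Without the ARSB-null liver numbered 5 the difference was 0.31, and without the control numbered 6 it was 0.30; in neither fit, nor without either array numbered 4, was its unadjusted p under 0.05.

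Of 13 genes of C-type lectin receptors and their signalling partners, 3 were higher and 2 lower at an unadjusted p under 0.05, with none past the adjusted threshold. Clec4n (dectin-2, a receptor for mannans) was higher, with log2 signals of 7.03, 7.14 and 7.0 in ARSB-null liver against 6.28, 6.76 and 6.38 in control liver (adjusted p = 0.535 from limma). Clec4a3 and Clec12a (an inhibitory receptor for uric acid crystals) had differences of -0.57 (adjusted p = 0.568) and -0.45 (adjusted p = 0.799). The family held differences of both signs, and the median over the list was 0.08.

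Itgax encodes CD11c, the integrin alpha chain by which dendritic cells and some macrophages are sorted. The signals (log2) were 6.16, 5.91 and 6.20 in ARSB-null liver and 5.73, 5.43 and 5.95 in control liver. The mean over the 6 arrays, 5.90, lay below the median of all probe sets, 6.54. The groups overlapped, since the control numbered 6 lay above the ARSB-null liver numbered 5. The log2 difference was 0.39 with a standard error of 0.16, which is 1.31-fold (95% interval 1.01 to 1.70, unadjusted p = 0.0467, adjusted p = 0.835 from limma). Its unadjusted p was no longer under 0.05 without the ARSB-null liver numbered 4 or 6 or the control numbered 4 or 5, and the difference was 0.25 without the control numbered 5.

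Of 6 genes of the other leukocyte integrins and their ligands, none was higher and 1 lower at an unadjusted p under 0.05. Itgb2, which encodes the beta chain with which CD11c pairs, had a log2 difference of 0.05, Itgam (CD11b) one of -0.15 and Itgal (CD11a) one of -0.34, the last with all ARSB-null livers below all controls (unadjusted p = 0.0311, adjusted p = 0.794 from limma). Of the 9 markers of dendritic cells, none was past the adjusted threshold and 1, Clec9a, was higher at an unadjusted p under 0.05 (log2 difference 0.37, adjusted p = 0.838), while Zbtb46, a transcription factor of conventional dendritic cells, differed by 0.21 (adjusted p = 0.953). The summed linear signal of these 9 markers was 1656 to 1734 in ARSB-null and 1660 to 1688 in control livers. The part of dendritic cells in the signal of Itgax was not tested.

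Cd9 encodes a tetraspanin of the plasma membrane and of extracellular vesicles, and is a surface marker of lipid-associated and scar-associated macrophages. Its log2 signal was 8.25, 8.27 and 8.29 in ARSB-null liver and 7.72, 7.86 and 8.0 in control liver. The ARSB-null livers were nearly alike and all lay above the controls. The means were 8.27 ± 0.02 and 7.86 ± 0.14 (SD, n = 3 each) in ARSB-null and control liver, a 1.33-fold difference with a 95% interval of 1.11 to 1.58 (unadjusted p = 0.00662, adjusted p = 0.568 from limma).

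Among 11 other tetraspanins and partners of CD9, only Cd63, a tetraspanin of late endosomes and lysosomes, was higher at an unadjusted p under 0.05. Its log2 signal was 7.06, 7.03 and 7.05 in ARSB-null liver and 5.72, 6.45 and 6.36 in control liver, 1.83-fold (95% interval 1.33 to 2.52, adjusted p = 0.451 from limma). At that level 3 were lower: Tspan33 (log2 difference -0.35), Cd151 (-0.31) and Cd81 (-0.23), with an adjusted p of 0.732 to 0.802 from limma. The median over the 11 genes was -0.16.

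Lgals3 encodes galectin-3, a β-galactoside-binding lectin of the cytosol, nucleus and cell surface that macrophages secrete and that gathers on damaged lysosomes. Signals of 8.73, 8.74 and 8.57 (log2) were read in ARSB-null liver, against 7.87, 8.26 and 7.91 in control liver. All ARSB-null livers were above all controls, of which the one numbered 5 was the highest. The means were 8.68 ± 0.10 in ARSB-null and 8.01 ± 0.21 in control tissue (SD, n = 3 each). The difference was the largest among the 9 members, 1.59-fold with a 95% interval of 1.27 to 1.98 (unadjusted p = 0.00169, adjusted p = 0.378 from limma), and ranked 52 by size in the upward direction among the 19938 genes.

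Lgals1 encodes galectin-1, a lectin of the same family that is expressed by macrophages, stellate cells and fibroblasts. Its log2 signal was 9.66, 9.57 and 9.46 in ARSB-null liver and 9.62, 9.93 and 9.91 in control liver. The control numbered 4 lay within the range of the ARSB-null livers and the other 2 controls lay above it. The log2 difference was -0.25 (95% interval -0.54 to 0.04, unadjusted p = 0.0778, adjusted p = 0.876 from limma), opposite in sign to that of Lgals3. Without the control numbered 4 it was -0.35, with an unadjusted p under 0.05 and an adjusted p that was not under the threshold.

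Of 8 other measured genes of the galectin group, none was higher and 1 was lower at an unadjusted p under 0.05, Lgals3bp, a secreted glycoprotein that galectin-3 binds (log2 difference -0.35, adjusted p = 0.794 from limma). Lgalsl had a difference of -0.17, Lgals2 one of -0.14 and Lgals12 one of 0.19, and the median was -0.06. The 10 markers of stellate cells and fibroblasts, which also express Lgals1, had no gene past an unadjusted p of 0.05, a median difference of 0.09 and a summed linear signal of 7345 to 8462 in ARSB-null against 7270 to 7813 in control livers.

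The promoters of 3 members are set side by side: Lgals3, with the largest difference, and Trem2 and Itgax, in which the pattern TGANTCA was found. RefSeq promoter entries (GRCm38.p6, 250 bases before to 50 after the start) were matched for 6 of the 10 genes: Trem2, Cd9, Spp1, Itgax, Lgals3 and Clec7a. Tyrobp, Lpl, Fabp5 and Lgals1 had none. The bases shown end before the first annotated base of each gene and run 5′ to 3′ on the plus strand, with matches to TGANTCA in capitals. This pattern is a loose form of the motif of AP-1 factors such as FOS and JUN, with any base (N) at its centre. They lie at chr14:47373740-47373859 for Lgals3, chr17:48346281-48346400 for Trem2 and chr7:128129430-128129525 for Itgax.
Lgals3: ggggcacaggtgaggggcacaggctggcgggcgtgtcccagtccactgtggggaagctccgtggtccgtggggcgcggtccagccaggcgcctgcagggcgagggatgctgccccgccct
Trem2: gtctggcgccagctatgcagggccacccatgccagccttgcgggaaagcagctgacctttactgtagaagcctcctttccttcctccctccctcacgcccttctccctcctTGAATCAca
Itgax: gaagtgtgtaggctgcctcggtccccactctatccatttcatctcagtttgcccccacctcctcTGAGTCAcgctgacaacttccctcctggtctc

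In Trem2 the match to TGANTCA was TGAATCA and began 9 bases before the start (position -9). In Itgax the match was TGAGTCA and began at position -56, counted from the start of this promoter entry at chr7:128129550. That start lies inside the annotated gene, which begins at 128129526, so the bases shown for Itgax end before it. The motif TGANTCA reads the same on both strands. It was held by 2 of the 6 genes and by 7.81% of the 32851 promoters of the same length. The 6 genes had 8 promoter entries, and a gene was counted if any of its entries held the motif. Counts of genes and shares of promoters, here and for the other motifs, are therefore not directly comparable. The stretch of Lgals3 had no match to TGANTCA. Its GC content was 75%, against 59.2% in that of Trem2 and 56.2% in that of Itgax. The other motifs were searched on both strands as well. CACGTG, the E-box that MITF and TFEB read, was in none of the 6 genes and in 7.15% of all promoters. The paper names a different sequence, CAGGT, as a putative MITF site in the GPNMB promoter. That sequence was not searched, and its share over all promoters was not counted. It can be read in the stretch of Lgals3 shown above (ggggcacaggtgagg). GAGGAAGT, a motif of the myeloid factor PU.1, was in Spp1 alone (3.20% of all promoters), and AGGTCA, the half-site of nuclear receptors, in Trem2 alone (16.3%). These matches describe letters in a window of 300 bases and are not evidence of binding.

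Lpl encodes lipoprotein lipase, which frees fatty acids from circulating triglycerides and is low in adult hepatocytes. Lpl read 8.06, 8.34 and 7.85 (log2) in ARSB-null liver and 8.0, 7.94 and 7.80 in control liver. The ARSB-null livers numbered 4 and 5 lay above all controls, and that numbered 6 within their range. The log2 difference was 0.17 (95% interval -0.18 to 0.51, adjusted p = 0.977 from limma). It was 0.04 without the ARSB-null liver numbered 5, 0.29 without that numbered 6 and 0.11 without the control numbered 6.

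Fabp5 encodes a cytosolic fatty acid binding protein of macrophages and epithelia. On the brighter of its 2 probe sets the log2 signal was 10.17, 9.61 and 9.77 in ARSB-null liver and 9.89, 10.26 and 10.03 in control liver. The ARSB-null liver numbered 4 was above 2 of the controls and the other 2 ARSB-null livers were below all of them. The log2 differences of the 2 probe sets were -0.21 (95% interval -0.62 to 0.20) and -0.18 (95% interval -0.56 to 0.20), with an adjusted p of 0.977 and 0.984 from limma; they share transcript accessions and are not independent. The difference of Fabp5 was -0.09 without the ARSB-null liver numbered 5, -0.11 without the control numbered 5 and -0.37 without the ARSB-null liver numbered 4, the last at an unadjusted p under 0.05 and an adjusted p of 0.851. Without both arrays numbered 4 the difference was -0.46 for Fabp5 and -0.40 for Lgals1, both at an unadjusted p under 0.05, with an adjusted p of 0.531 and 0.484.

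**Figure D2:**
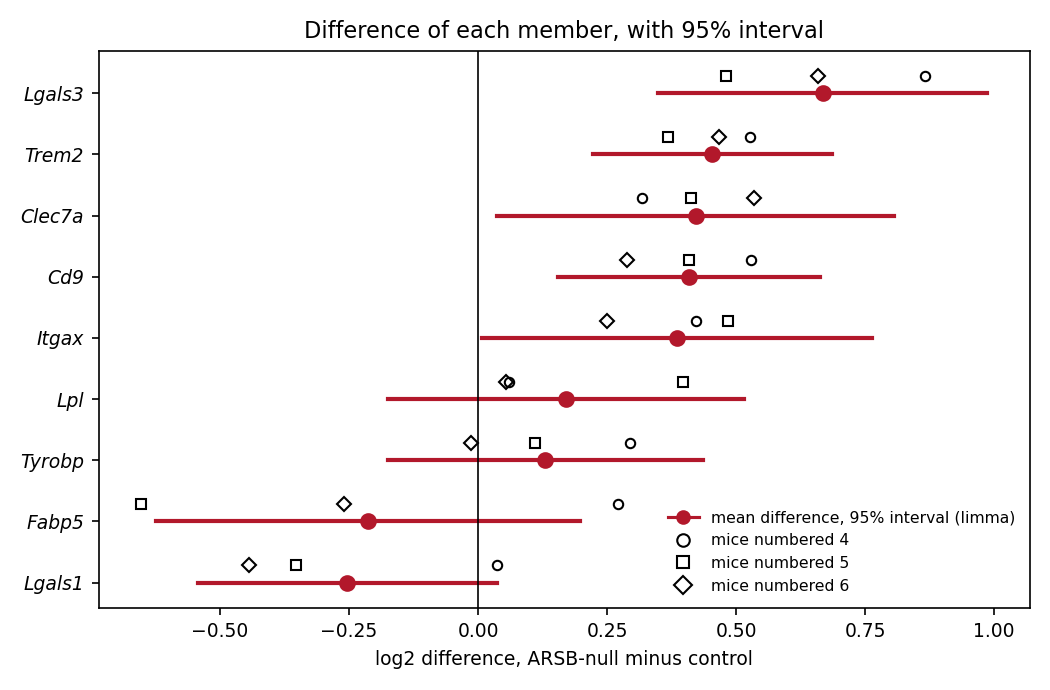
Log2 difference, ARSB-null minus control (horizontal axis), of the 9 measured genes with its 95% interval from limma (red); open symbols above each line are the differences between mice of the same number. The intervals of Lgals3, Trem2, Clec7a, Cd9 and Itgax lie above 0, and those of Lpl, Tyrobp, Fabp5 and Lgals1 hold 0.

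Partners of these genes in lipid handling were read as well. Of 9 measured genes that mature, hold or regulate lipoprotein lipase, 3 were higher and none lower at an unadjusted p under 0.05. Vldlr, the very low density lipoprotein receptor, had log2 signals of 7.14, 7.56 and 7.69 in ARSB-null and 6.66, 6.68 and 6.51 in control liver (log2 difference 0.85, adjusted p = 0.348 from limma). Gpihbp1, which anchors the lipase to capillaries, differed by 0.26 and Angptl8, one of its inhibitors, by 0.59, against -0.22 for Lmf1, a factor of its maturation. Of 9 other fatty acid binding proteins none was past an unadjusted p of 0.05. Fabp4 of adipocytes, macrophages and capillaries differed by 0.24 without overlap of the groups, Fabp6 by -0.16, Fabp7 by -0.15 and Fabp1, the hepatocyte form, by 0.06. Of 4 measured adipocyte markers none was past an unadjusted p of 0.05, with a summed linear signal of 224.0 to 246.1 in ARSB-null and 202.0 to 260.4 in control livers.

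The receptors of osteopontin were measured although osteopontin itself was not. Of 10 genes, 1 was higher, Itga9 (log2 difference 0.40, unadjusted p = 0.0103), and 1 was lower, Cd44 (-0.32, unadjusted p = 0.0489), with an adjusted p of 0.647 and 0.839 from limma. Itgav had a difference of -0.12, Itga5 one of -0.20, and the median was -0.06. Markers of bile duct cells, a main source of osteopontin in liver, included 1 gene of 7 past an unadjusted p of 0.05, Sox9 (log2 difference -0.35, adjusted p = 0.626). The summed linear signal of these 7 was 675 to 753.9 in ARSB-null and 766.8 to 838.8 in control livers. The ARSB-null mean was the higher one for 4 of them and the lower one for 3, with a median log2 difference of 0.02, and Sox9 was the only one of the 7 in which the groups did not overlap. The part of these cells in the signals of the 9 genes was not tested.

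Within the groups the 9 genes did not follow 1 mouse. The SD ran from 0.02 (Cd9) to 0.29 (Fabp5) in ARSB-null and from 0.05 (Trem2) to 0.26 (Itgax) in control livers, and was the smaller in ARSB-null liver for 5 of the 9. The ARSB-null liver numbered 4 was the highest of its group for 4 genes and that numbered 6 the lowest for 5, while among the controls the liver numbered 5 was the highest for 5. Between mice of the same number, 9 of 9 genes were higher in ARSB-null liver for number 4, 7 for number 5 and 6 for number 6. Trem2, Cd9, Itgax, Lpl, Lgals3 and Clec7a were higher in all 3 of these comparisons, Tyrobp in 2, and Fabp5 and Lgals1 in 1.

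**Figure D3:**
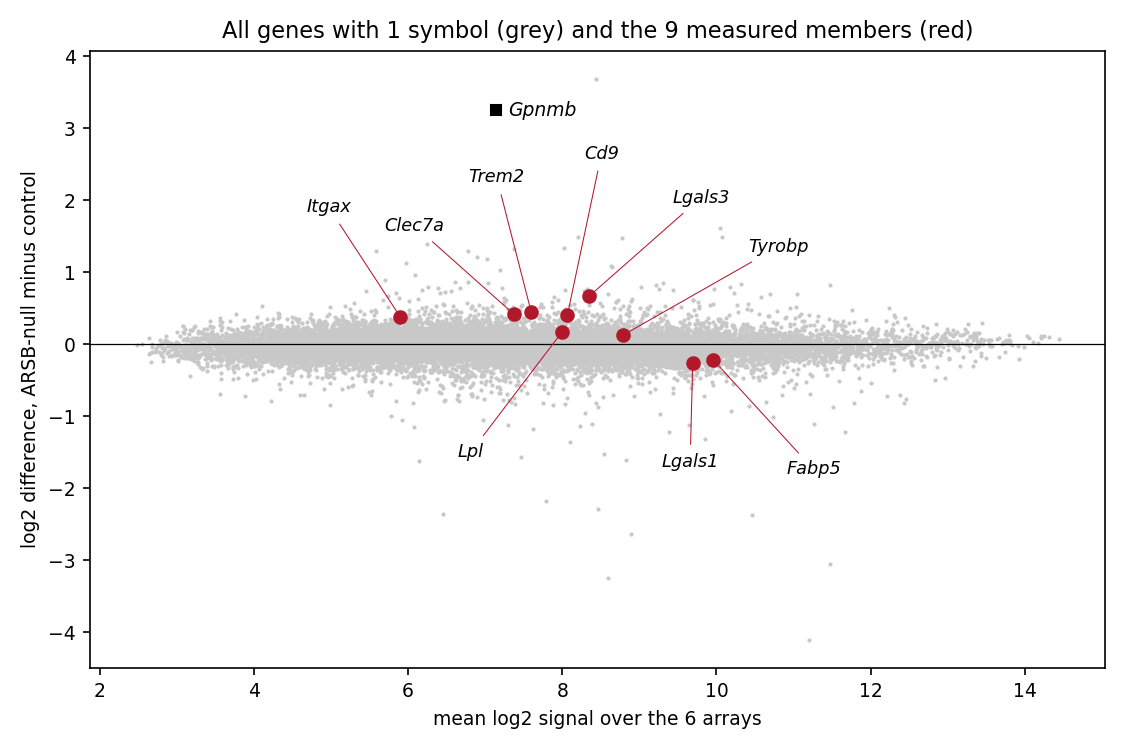
Log2 difference, ARSB-null minus control (vertical axis), against the mean log2 signal over the 6 arrays (horizontal axis) for all 19938 genes with 1 symbol (grey), the 9 measured members (red) and Gpnmb (black square). The members lie between -0.25 and 0.67 and Gpnmb at 3.25.

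A further 28 genes of the programme, all measured, were listed apart from the 10, among them lysosomal enzymes, chemokines and lipid droplet proteins. The ARSB-null mean was the higher one for 21 of these and the lower one for 7, and the median was 0.13 on the log2 scale. Only Gpnmb was past the adjusted threshold. At an unadjusted p under 0.05, 8 were higher and none lower, and in 11 all ARSB-null livers were above all controls. Over all genes with 1 symbol, 2.0% were higher at that level and 4.73% had all ARSB-null livers above all controls. The ARSB-null mean was the higher one for 9017 of those 19938 genes. The list was chosen with earlier results of these data known, so its counts are descriptions. Gpnmb, a transmembrane glycoprotein of macrophages and osteoclasts that MITF and TFE factors induce, was 8.79, 8.73 and 8.77 in ARSB-null and 5.77, 5.42 and 5.36 in control liver, which is 9.53-fold (adjusted p = 0.000639 from limma). The largest difference among the 9 members was 1.59-fold.

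Ms4a7, a four-span membrane protein of macrophages, had log2 signals of 7.15, 6.78 and 6.91 in ARSB-null against 5.65, 5.67 and 5.34 in control liver (log2 difference 1.39, adjusted p = 0.0941 from limma). Mmp12, the macrophage elastase, had 6.67, 6.60 and 6.47 against 5.64, 5.55 and 5.65 in control liver (0.96, adjusted p = 0.0941). The groups did not overlap for either gene. Ccl3, a chemokine of macrophages, differed by 0.86 (adjusted p = 0.382). The others higher at an unadjusted p under 0.05, named after their values were seen, were the lysosomal proteins Cd63 (0.87) and Cd68 (0.53), Atp6v0d2 (1.34), a subunit of the proton pump of osteoclasts and macrophages, and Axl (0.28), a receptor for dying cells.

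When only the 21789 probe sets with 1 symbol were fitted, 0.124% of them were higher and 0.151% lower past the adjusted threshold; 3 of the 28 genes were among the higher ones, Gpnmb, Ms4a7 (adjusted p = 0.00395 from limma) and Mmp12 (adjusted p = 0.00799), and none of the 9 members, of which Lgals3 had an adjusted p of 0.10 and Trem2 one of 0.187.

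**Figure D4:**
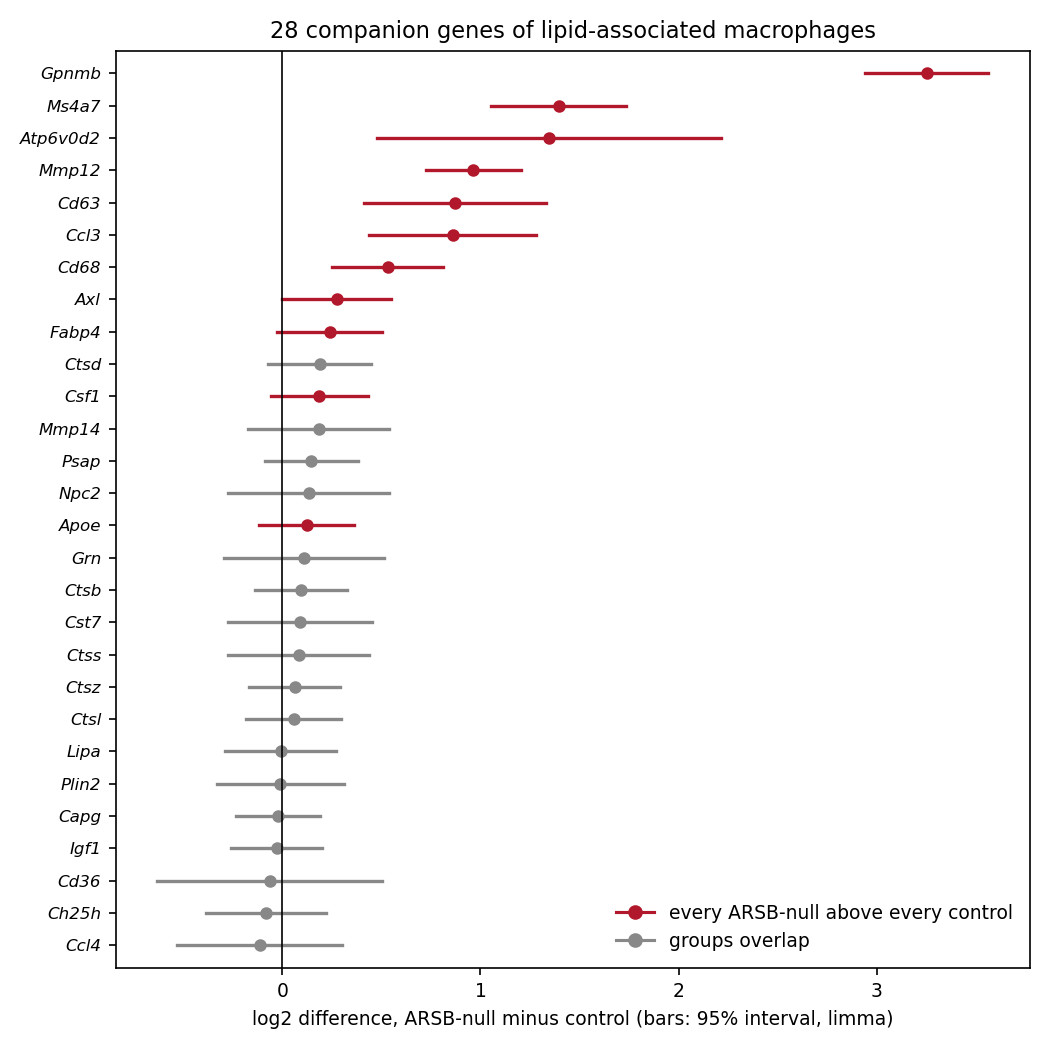
Log2 difference, ARSB-null minus control, with its 95% interval from limma (horizontal axis) for 28 further genes of lipid-associated macrophages, sorted by size; red marks the 11 genes in which all ARSB-null livers lie above all controls. Gpnmb lies at 3.25, and the differences of the other 27 lie between -0.11 and 1.39.

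Of 12 markers of resident Kupffer cells, all measured, the ARSB-null mean was the higher one for 2 and the lower one for 10. Their median was -0.18 on the log2 scale. None was past the adjusted threshold. At an unadjusted p under 0.05, 1 was higher, C1qa of complement (log2 difference 0.39), and 4 were lower. C1qb and C1qc, from the same list and named after their values were seen, differed by -0.13 and -0.14, neither at that level. The remaining markers, also named after their values were seen, were Vsig4 (-0.35), Timd4 (-0.21), Clec4f (-0.12), Cd5l (-0.04) and Marco (0.04). None of these was at that level, and for each the groups overlapped. Folr2, a folate receptor of resident macrophages, had 7.73, 7.75 and 7.56 in ARSB-null liver against 8.60, 8.47 and 8.23 in control liver (-0.75, adjusted p = 0.272 from limma). Cd163, the haemoglobin scavenger receptor, had 6.59, 6.94 and 7.01 against 7.60, 7.77 and 7.48 in control liver (-0.77, adjusted p = 0.355). For both genes all ARSB-null livers were below all controls. Over all genes with 1 symbol, 3.80% were lower at an unadjusted p under 0.05 and 8.32% had all ARSB-null livers below all controls. The ARSB-null mean was the lower one for 10921 of those 19938 genes.

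Adgre1 (F4/80) differed by -0.35 and Csf1r, the receptor of the macrophage growth factor CSF1 and named after its values were seen, by -0.33, both with an adjusted p of 0.835 from limma. The summed linear signal of the 12 markers was 8154 to 8849 in ARSB-null and 8169 to 10730 in control livers, so the groups overlapped in this sum. Such sums, here and for the other cell types, follow the brightest probe sets most, and dim markers hardly count in them. Of 10 measured markers of monocytes and neutrophils none was higher and 2 were lower at an unadjusted p under 0.05. These were Chil3 (log2 difference -0.78, adjusted p = 0.485 from limma) and Ngp (-0.50, adjusted p = 0.609). Ccr2 of recruited monocytes differed by -0.36 and S100a8 by -0.21 without passing. All 4 were dim: their means over the 6 arrays were 4.22 (Chil3), 5.53 (Ngp), 5.46 (Ccr2) and 5.06 (S100a8), below the median of all probe sets, 6.54. The brighter Plac8 (8.03) and Cx3cr1 (6.79), named after their values were seen, both differed by 0.10. The ARSB-null mean was the higher one for 3 of the 10 and the lower one for 7. The summed linear signal of the 10 was 711.9 to 771.9 in ARSB-null and 720.6 to 840.2 in control livers. The 3 measured erythroid markers were lower at an unadjusted p under 0.05, with a median log2 difference of -0.81 and a summed linear signal of 1179 to 1514 in ARSB-null against 2353 to 2758 in control livers. The part of these cells in the signals of the 9 genes was not tested.

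**Figure D5:**
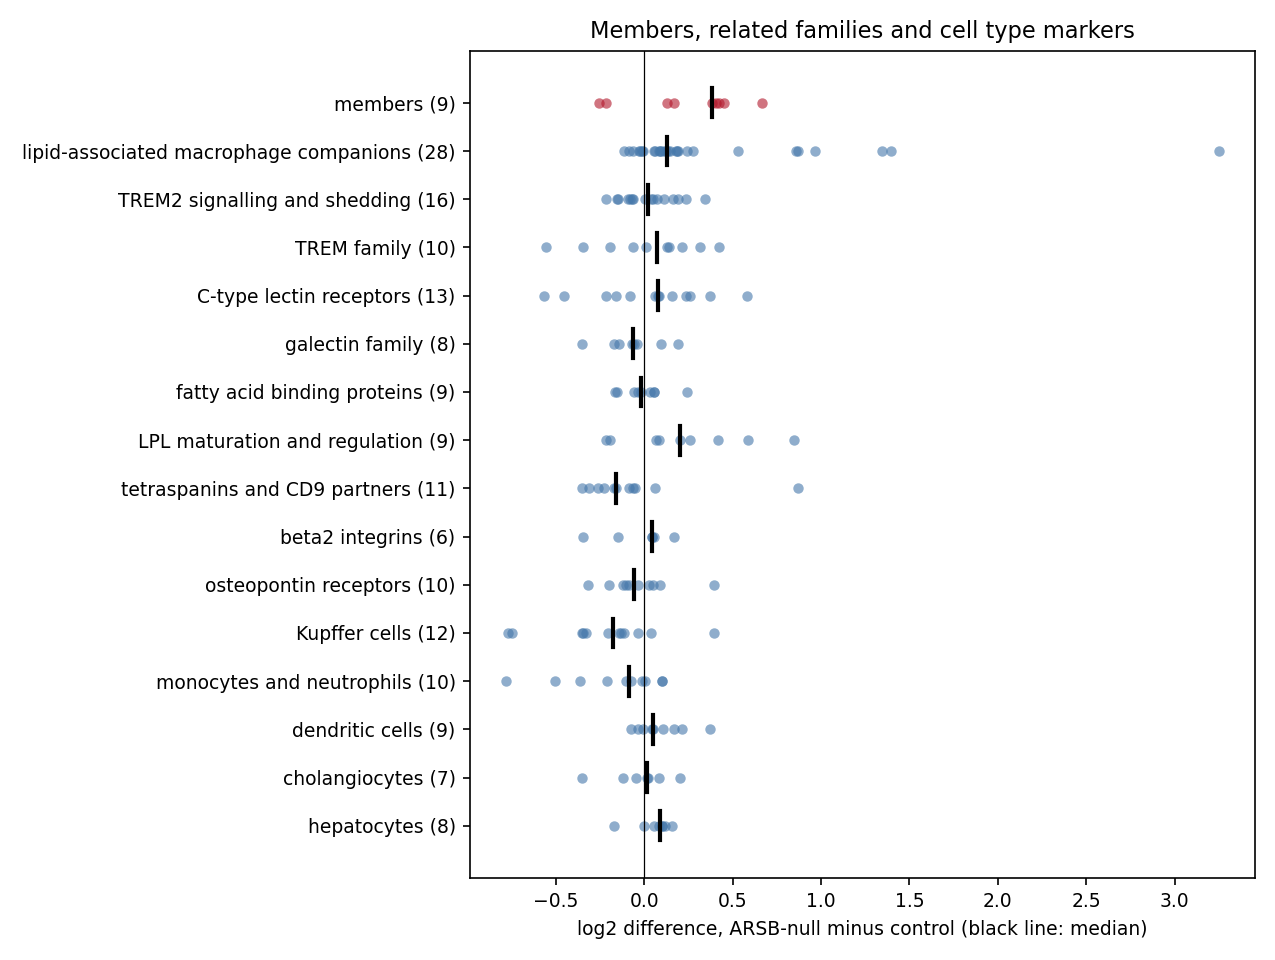
Log2 difference, ARSB-null minus control (horizontal axis), of each measured gene (points) in the 9 members (red), in 10 lists of related genes and in 5 lists of cell type markers (blue), with the number of genes in brackets and the median as a black line. The median is 0.39 for the members, 0.13 for the 28 companion genes and -0.18 for the Kupffer cell markers.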

How the data were processed

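The 6 arrays were labelled and hybridized by the authors, who deposited log2 signals, quantile-normalized and summarized, 1 per probe set. RMA and Partek are listed in the notes of the submitters, with no version. Scanner files were not analysed here, so background correction and normalization were not repeated. The paper names a second-generation mouse gene array, whereas the row identifiers matched GEO's annotation of the earlier one. Of 35556 probe sets, 21789 carried 1 symbol, 1621 several and 12146 were not listed.

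Groups were compared by limma 3.58.1 in R 4.3.3 (lmFit and eBayes, two-sided), with Benjamini-Hochberg adjustment over all probe sets and a threshold of 0.05. The paper names ANOVA tests in Partek. A one-way ANOVA per probe set was run here as an alternative and does not repeat the Partek analysis. Intervals are 95% intervals from the fit. The procedure was tested on simulated data. The number of mice limits the precision. The limma p-values set the difference between the groups against the spread between these mice, which limma shares over probe sets. They do not separate genotype from colony.

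The members and lists were chosen with earlier results of these data known, so list counts and medians are descriptions. All members and up to 4 genes of each list with the smallest p were named; any other is said to be named after its values were seen. Departures from the group means correlated at 0.396, 0.159 and 0.193 between mice numbered 4, 5 and 6 in both groups, all above the limit of 0.1 for treating the numbers as pairs, although the ARSB-null mouse numbered 6 correlated more with the control numbered 5 (0.220) than with its own number. What mice of 1 number have in common is not given in the sources used here, and the main fit did not use the numbers. With the number as a block, the unadjusted p from limma was 0.00686 for Clec7a and 0.0108 for Itgax, smaller than in the main fit. It was larger for Trem2 (0.00420), Cd9 (0.00842) and Lgals3 (0.00199).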

Additional observations from a re-analysis of the deposited data

How the results depend on the processing

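The 9 members kept the sign of their difference in every alternative fit, and none passed an adjusted p of 0.05 in any of them. By a one-way ANOVA run here, at an unadjusted p of 0.05 or less, 3 were past (Trem2, Cd9 and Lgals3). At that level 941 probe sets were higher. The paper reports no gene other than GPNMB as significantly upregulated, so these are not calls of the paper. At an unadjusted p under 0.05, Trem2, Cd9 and Lgals3 were higher in 16 of 16 fits, Clec7a in 9 of 16 and Itgax in 6 of 15. Against 5 members higher at that level, 3 were so by ANOVA, with array medians centred and with both arrays numbered 4 left out, and 3 to 4 when each array was left out in turn; 1 was lower with array weights, 2 with both arrays numbered 4 left out, and 0 to 1 without single arrays. The median difference of 0.39 was 0.29 among probe sets above the median signal, 0.28 with array weights and 0.25 to 0.35 without single arrays. The fit above the median signal does not hold Itgax, which lay below it, so its median is over the remaining members.

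Over all probe sets, against 2 higher and 5 lower, there were 1 and 1 by ANOVA with adjusted p, 941 and 1392 by ANOVA unadjusted, 1 and 3 with the replicate block, 27 and 33 among probe sets with 1 symbol, 5 higher above the median signal, 1 higher with medians centred, 14 and 14 with array weights, 1 and 0 without both arrays numbered 4, and 1 higher with 3 to 6 lower without single arrays. The replicate block changed no call of a member or list. Among probe sets with 1 symbol, 3 companion genes were higher and 2 erythroid markers lower (Slc4a1 and Alas2), against 1 and 0. Fits on fewer probe sets or arrays differ in that number by construction; for the others the cause was not tested. Without detection calls, how far a probe set stood above background could not be given.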
